A study of Mus musculus with 20 samples.

Results

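The abdominal aortas of C57BL/6 mice, in 20 libraries, were examined for 10 genes of the small and inducible heat shock proteins and their partners. They are the small heat shock protein genes Hspb1, Hspb6, Hspb7, Hspb8 and Cryab, the inducible Hsp70 genes Hspa1a and Hspa1b, the constitutive Hsp70 gene Hspa8, the Hsp110 gene Hsph1 and the Hsp40 gene Dnajb1. These 10 of the 42890 annotated genes with values were chosen by name, by no threshold on their values. The libraries fell into 4 groups of 5: Rab22a KO mice given angiotensin II (AngII, 500 ng/kg/min) for 14 days (KO+AngII), Rab22a KO mice given saline for 14 days (KO+NS), Rab22a WT mice given the same AngII dose (WT+AngII) and Rab22a WT mice given saline (WT+NS). No source used here gives the age of the mice, the route of AngII or the design of the knockout allele. The labels do not say that each library came from a mouse of its own, so p-values measure the spread between these libraries. Going by the series title, the study asked whether loss of Rab22a, a small GTPase of endosomes, prevents hypertension caused by AngII through recycling of its type 1 receptor. RNA was depleted of ribosomal RNA and sequenced as total RNA, and values were in FPKM, read counts scaled to transcript length and library total, summed over the annotated transcripts of each gene.

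Heat shock proteins keep other proteins folded. Small heat shock proteins form oligomers that hold unfolding proteins without using ATP. Hsp70 proteins then refold them in an ATP-driven cycle, in which an Hsp40 protein such as that of Dnajb1 delivers the substrate and an Hsp110 protein such as that of Hsph1 exchanges the nucleotide. Heat shock factor 1 switches on the inducible members by binding inverted repeats of the unit nGAAn in their promoters. In arteries Hspb1 and Hspb6 are known as actin-associated proteins of smooth muscle, and Hspb6, Hspb7 and Cryab are also abundant in heart and skeletal muscle.

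Each library rested on 68748100 to 77391200 reads. The Rab22a coding transcript ENSMUST00000029024 was at 0.00411 ± 0.00205 FPKM in KO+AngII and 0.00184 ± 0.00128 in KO+NS, against 5.96 ± 2.54 in WT+AngII and 5.90 ± 2.34 in WT+NS (SD, n = 5 each). Every KO library lay below every WT library on it. A second annotated transcript, ENSMUST00000142820, had 9.20 ± 0.603 FPKM in KO+AngII and 9.38 ± 1.33 in KO+NS, against 1.82 ± 1.01 in WT+AngII and 2.18 ± 1.47 in WT+NS (SD, n = 5 each), and the gene total was not lower in KO. Markers of smooth muscle were all present, with summed levels of 1248 to 6467 FPKM per library, lowest in KO+NS replicate 1. Markers of other tissues varied far more: the skeletal muscle list (14 genes) summed to between 4.84 and 8845 FPKM, and the B and plasma cell list (6 genes) to between 6.07 and 645.9 FPKM. The lymphocyte lists were low in 5 KO libraries, namely KO+AngII replicates 1 and 2 and KO+NS replicates 2, 4 and 5, and in no WT library. KO+AngII replicate 2 was the only library with cardiac muscle markers above a trace, at 301.7 FPKM against 0.868 to 6.22 in the 19 others. The same library had the fewest transcript models above 0 (74093) and the fewest genes at 1 FPKM (12504). It also had the highest mitochondrial share of the FPKM (13.4%). In such bulk samples fewer cells of a type and less RNA per cell cannot be told apart. The labels name no batch.

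All 10 members passed the filter of at least 1 FPKM in at least 5 libraries, which 15010 genes passed. Per length, Hspa8 was the most abundant, with a mean over the 20 libraries of 378.3 ± 114.2 FPKM (SD, n = 20), above 99.1% of tested genes. Hspb1 followed at 154.2 FPKM (range 47.3 to 286.1), then Hspb8 at 72.8, Hspb7 at 57.2, Cryab at 49.0, Hspb6 at 32.5, Hsph1 at 30.7, Hspa1b at 24.5, Dnajb1 at 19.6 and Hspa1a at 14.9 FPKM. The ranges of neighbours in this order overlapped throughout. The steadiest members across libraries were Hsph1, whose highest library had 2.01 times the FPKM of its lowest, and Dnajb1, at 2.31 times. Hspb7 spanned 9.39-fold, Hspa1a 27.8-fold, and Hspa1b ranged from 0.0437 FPKM, in a library with 9 reads, to 78.7 FPKM.

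**Figure D1:**
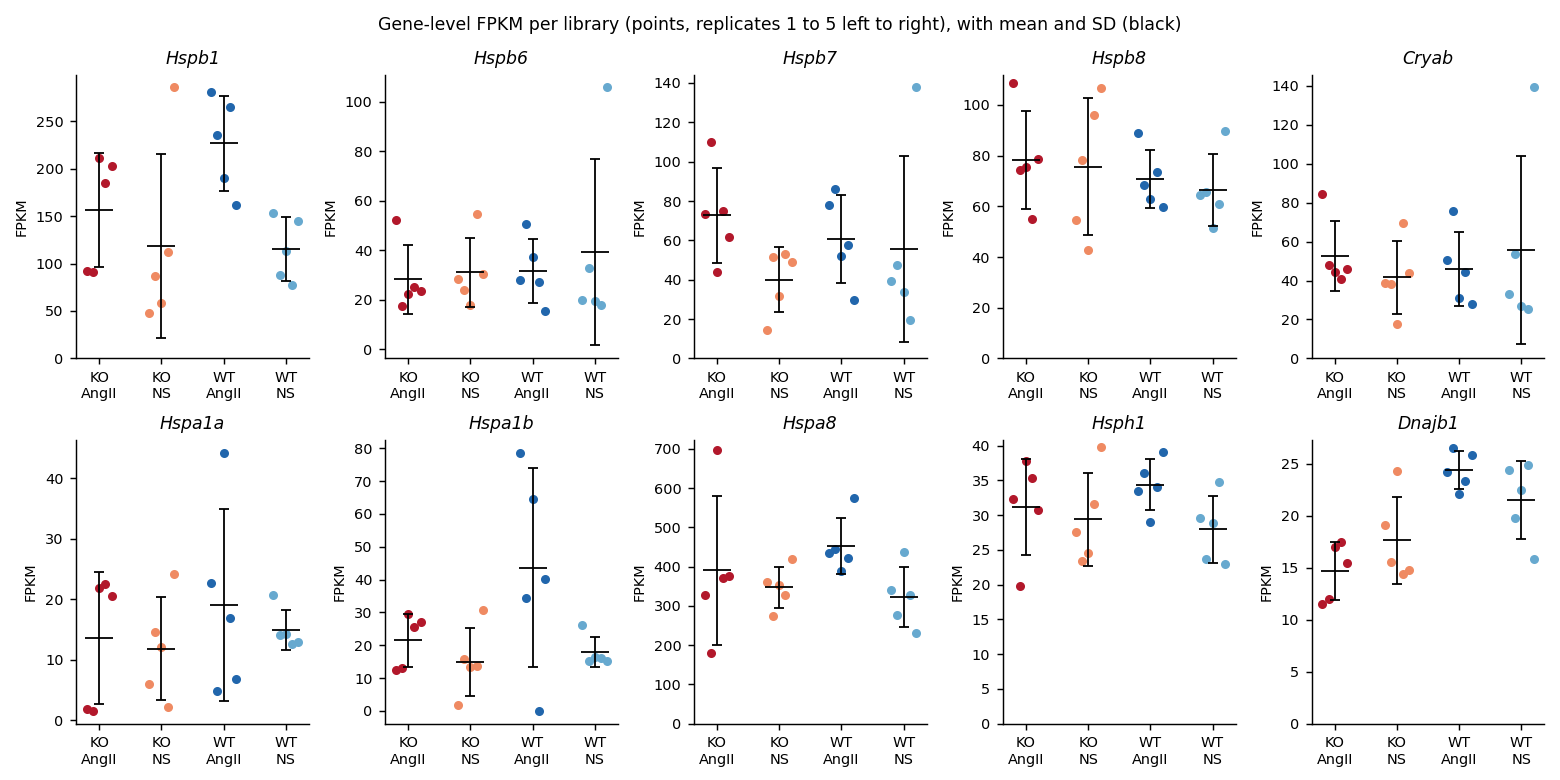
FPKM of the 10 heat shock genes in each library, in columns KO+AngII, KO+NS, WT+AngII and WT+NS. Points are libraries, black bars the mean and SD of 5; Dnajb1 shows no overlap between KO+AngII (11.5 to 17.5) and WT+AngII (22.1 to 26.6), and Hspb6, Hspb7 and Cryab show 1 WT+NS library far above the others.

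Heat shock genes are recognised by paired nGAAn units upstream of the start, so the 250 bases before the start were read for the members from RefSeq promoter windows (GRCm38.p6). Windows matched 8 of the 10 genes, all but Cryab and Hspa8. The windows of 4 genes are shown: the inducible pair, which are nearly the same sequence, and Hspb1 and Dnajb1, the members with groups that did not overlap in a comparison. Capitals mark an inverted pair of units, GAANNTTC or TTCNNGAA, on either strand, since both motifs are their own reverse complement.
Hspa1a: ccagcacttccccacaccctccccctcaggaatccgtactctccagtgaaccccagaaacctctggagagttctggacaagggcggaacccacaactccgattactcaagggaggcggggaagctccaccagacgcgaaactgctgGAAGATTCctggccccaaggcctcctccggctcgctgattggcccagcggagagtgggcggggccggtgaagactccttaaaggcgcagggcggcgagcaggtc
Hspa1b: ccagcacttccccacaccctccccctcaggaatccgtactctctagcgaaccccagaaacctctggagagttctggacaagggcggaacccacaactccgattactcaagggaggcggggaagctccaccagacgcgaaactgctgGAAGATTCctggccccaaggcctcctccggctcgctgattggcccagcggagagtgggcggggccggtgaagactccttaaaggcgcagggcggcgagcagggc
Hspb1: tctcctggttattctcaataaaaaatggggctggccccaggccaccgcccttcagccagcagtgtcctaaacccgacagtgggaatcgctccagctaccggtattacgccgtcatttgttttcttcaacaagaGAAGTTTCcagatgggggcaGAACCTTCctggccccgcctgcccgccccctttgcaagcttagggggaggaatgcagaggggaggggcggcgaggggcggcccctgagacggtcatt
Dnajb1: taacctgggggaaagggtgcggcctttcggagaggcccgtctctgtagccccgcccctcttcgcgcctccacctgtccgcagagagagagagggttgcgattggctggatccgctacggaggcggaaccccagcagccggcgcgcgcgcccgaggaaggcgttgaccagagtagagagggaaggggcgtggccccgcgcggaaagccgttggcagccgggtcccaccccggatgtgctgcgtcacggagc
These windows lie at chr17:34972157-34972406 (minus strand), chr17:34959239-34959488 (minus strand), chr5:135887669-135887918 (plus strand) and chr8:83607925-83608174 (plus strand). The 8 genes had 11 windows, since Hspb6, Hsph1 and Dnajb1 had 2 each, and the first Dnajb1 window is shown. A pair of units stood in 6 of the 11 windows, those of Hspa1a, Hspa1b and Hspb1, both of Hsph1 and 1 of the 2 of Hspb6, and in 12.8% of the 32851 windows of all genes. The 2 Hsph1 windows overlap and hold the same pair, so the windows are not separate promoters. Both Hspb6 windows and the second Dnajb1 window lie inside the gene as annotated. The Hsph1 windows reach into their gene as annotated, and the pair they share lies inside it. The Hspb1 window held 2 pairs, beginning 117 and 97 bases before the start, and the Hspa1a and Hspa1b windows held 1 each, 104 bases before it. No run of 3 units (GAANNTTCNNGAA or TTCNNGAANNTTC) stood in any member's window, against 0.466% of all windows, and neither Dnajb1 window held a pair. The Hspa1a and Hspa1b windows were identical at 247 of 250 positions, the differences being C44T, T47C and T249G (Hspa1a base, position from 1 at the 5′ end of the window, Hspa1b base). A match describes letters, not a site that is bound.

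Dnajb1, the Hsp40 co-chaperone that stimulates the ATPase of Hsp70, was the 1 member that differed between genotypes beyond the test threshold. Its values were 11.5, 11.96, 17.0, 17.5 and 15.5 FPKM in KO+AngII replicates 1 to 5, against 24.3, 26.6, 22.1, 23.3 and 25.8 in WT+AngII replicates 1 to 5. Every KO+AngII library lay below every WT+AngII library. The means were 14.7 ± 2.81 and 24.4 ± 1.81 FPKM (SD, n = 5 each), a difference of -0.71 ± 0.16 (SE) in log2(FPKM + 1), with an adjusted p of 0.0307 in limma over all 15010 genes. In that comparison 275 genes (1.83%) were called, 216 lower and 59 higher in KO+AngII, and the genes with groups that did not overlap and were lower in KO+AngII made up 3.84% of those tested. The split turned with scaling, to 191 higher and 170 lower in the manner of TMM and 250 higher and 124 lower with quantile normalization. The count was 9 to 484 without single libraries and 1 with only the groups compared. Dnajb1 ranked 108th by p, and the other 9 members overlapped between these groups and were not called.

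Under saline Dnajb1 had 19.1, 15.6, 24.3, 14.4 and 14.8 FPKM in KO+NS replicates 1 to 5, against 24.4, 19.8, 22.5, 24.9 and 15.9 in WT+NS replicates 1 to 5. The 2 groups overlapped, with means of 17.6 ± 4.16 and 21.5 ± 3.75 FPKM (SD, n = 5 each) and a difference of -0.28 (95% interval -0.61 to 0.05, adjusted p = 0.730, limma), where 2 genes (0.0133%) were called. Averaged over both treatments, Dnajb1 was lower in KO by 0.50 on the log2 scale (-0.50 ± 0.11, SE, adjusted p = 0.0187, limma), a comparison with 623 called genes (4.15%). The genotype difference itself was not shown to depend on treatment (interaction -0.43, 95% interval -0.89 to 0.03, unadjusted p = 0.0651, adjusted p = 0.995, limma). The average over treatments kept its call without any 1 library (adjusted p 0.00622 to 0.0437). The call under AngII was lost in 8 of the 10 fits that left out 1 library of those 2 groups, and held without WT+AngII replicate 3 or KO+AngII replicate 4. It was also lost with only the groups compared (adjusted p = 0.0634, limma). The adjusted p ran from 0.0258 to 0.104 over the fits without 1 library, and the difference from -0.78 to -0.63.

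Dnajb1 moved with the immune markers of the libraries. The 5 KO libraries with little of the B and plasma cell list (mean log2 level 0.907 to 2.22) had 11.5 to 15.6 FPKM of Dnajb1. The 15 others (3.73 to 6.03) had 15.5 to 26.6 FPKM and, among themselves, a Pearson r of 0.70 and a Spearman rho of 0.68 with that list (unadjusted permutation p for r = 0.00396). These 15 hold both genotypes, and the permutations ignored group. With the macrophage list, which varied without a gap, r was 0.78 and rho 0.77 over the 20 libraries (adjusted permutation p = 0.00108 and 0.00195, over 130 pairs of member and list). It was 0.71 without the 2 libraries farthest on that list and 0.87 after subtracting group means. In KO+NS the highest Dnajb1 values, 24.3 and 19.1 FPKM, came from replicates 3 and 1, whose B and plasma cell sums were 472.1 and 645.9 FPKM, against 6.07 to 26.5 in its 3 other libraries. In KO+AngII these sums ran from 8.63 to 320.1 FPKM, against 260.8 to 580.6 in WT+AngII, and the 6 genes of the list had differences below 0 (median -2.17), of which 2 had an unadjusted p under 0.05 and 0 were called.

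With the level of both lymphocyte lists as a covariate, the Dnajb1 difference under AngII was -0.45 (adjusted p = 0.0247, limma), and with that of the macrophage list -0.52 (adjusted p = 0.0129). The averaged genotype difference was then -0.28 (adjusted p = 0.0170) and -0.37 (adjusted p = 0.00296). All 4 values were past the threshold, but these fits also called more genes. Under AngII they called 498 and 706, against 275 without a covariate, and over both treatments 1621 and 1510, against 623. Under saline the lymphocyte covariate left a difference of -0.11 (adjusted p = 0.577). Without KO+NS replicates 1 and 3 the saline difference was -0.48 (adjusted p = 0.0904). These fits were chosen after the data were seen. The number of transcript models above 0 was 74093 to 82052 in KO+AngII against 84713 to 92523 in WT+AngII, with no overlap, and 77040 to 83057 in KO+NS against 81734 to 91198 in WT+NS, with overlap. Its part in the result was not tested. The 3 genes most like Dnajb1 over the 20 libraries were the ribosomal protein genes Rpl27 and Rpl18 (r = 0.96 each) and Irf3, an interferon regulatory factor (r = 0.95).

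**Figure D2:**
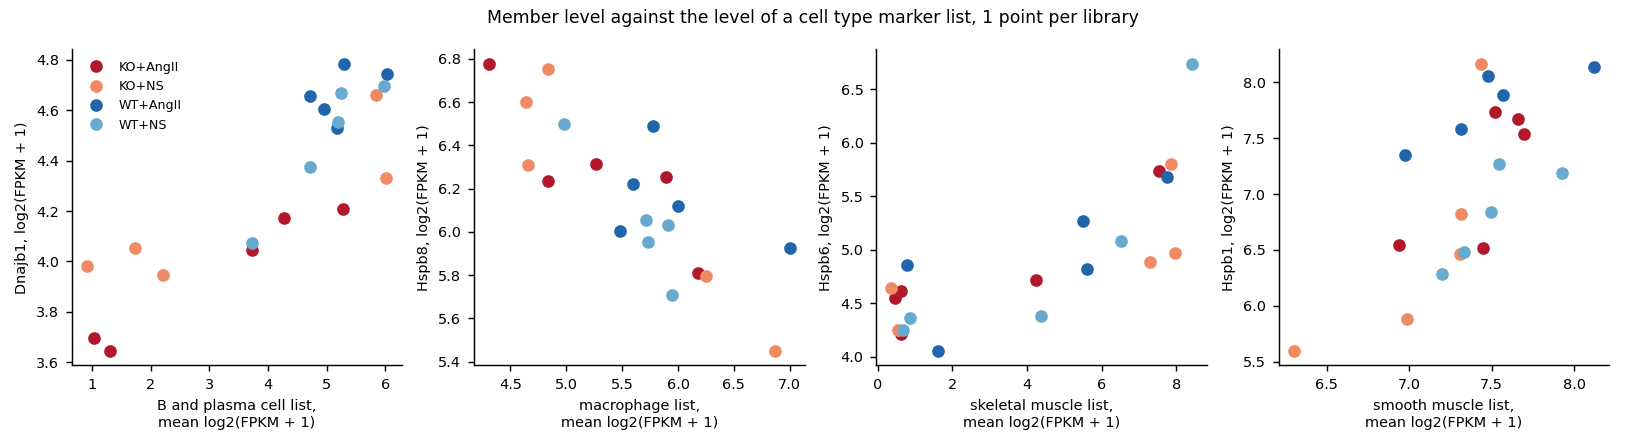
Level of 4 members against the mean level of a marker list in each library, both in log2(FPKM + 1), with 1 point per library coloured by group. Dnajb1 is at 11.5 to 15.6 FPKM in the 5 KO libraries low in B and plasma cell markers, Hspb8 falls across the macrophage list, Hspb6 is highest in the library highest in skeletal muscle markers, and Hspb1 is lowest in the library lowest in smooth muscle markers.

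Hspb1, which encodes the actin-capping small heat shock protein known as Hsp25 in mice and Hsp27 in humans, had the largest AngII difference of the set in WT mice. It stood at 280.5, 235.8, 190.3, 264.8 and 161.8 FPKM in WT+AngII replicates 1 to 5, against 153.1, 88.3, 113.5, 77.2 and 144.8 in WT+NS replicates 1 to 5. The groups did not overlap, which held in the higher direction for 0.333% of all genes in that comparison. The means were 226.6 ± 49.9 and 115.4 ± 33.5 FPKM (SD, n = 5 each), a difference of 0.99 (95% interval 0.17 to 1.81, unadjusted p = 0.0204), which failed adjustment over all genes (adjusted p = 1.00, limma). In that comparison 0 genes (0%) were called by limma, 458 were under an unadjusted p of 0.05, and 0 were called by limma-voom on whole reads.

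In KO mice Hspb1 had 92.5, 90.8, 211.5, 184.9 and 203.2 FPKM in KO+AngII replicates 1 to 5, against 47.3, 87.1, 58.2, 112.3 and 286.1 in KO+NS replicates 1 to 5. These groups overlapped, with 1 saline library, replicate 5, above every KO+AngII library, and differed by 0.62 (95% interval -0.20 to 1.43, adjusted p = 0.991, limma). Over both genotypes the AngII difference was 0.80 ± 0.28 (SE, unadjusted p = 0.00914, adjusted p = 0.933, limma). The difference between the genotypes in this response was within error (interaction -0.37, 95% interval -1.53 to 0.78). Without KO+NS replicates 1 and 3, the KO difference was 0.05 and that over both genotypes 0.52 (adjusted p = 0.825, limma). The smooth muscle list moved with Hspb1 over the 20 libraries (r = 0.70 and rho = 0.63, adjusted permutation p = 0.00439 and 0.0503; r = 0.51 without KO+NS replicate 1 and WT+AngII replicate 1, r = 0.74 after subtracting group means). The mean log2 level of that list was 7.45 in KO+AngII and 7.07 in KO+NS, and 7.49 in WT+AngII and 7.50 in WT+NS. Hspb1 also moved with the fibroblast list (r = 0.61 and rho = 0.56, adjusted permutation p = 0.0405 and 0.107; r = 0.45 without KO+NS replicate 1 and KO+AngII replicate 4, r = 0.60 after subtracting group means). The mean log2 level of the fibroblast list was 6.62 in KO+AngII and 6.29 in KO+NS, and 6.48 in WT+AngII and 6.25 in WT+NS. Of its 7 genes, 6 had a value above 0 for AngII minus saline in each genotype and 0 were called, and its part in the Hspb1 difference was not tested. With the smooth muscle list as a covariate the WT difference was 1.00 (unadjusted p = 0.00192, adjusted p = 0.875) and the KO difference 0.12.

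Of the 50-base stretches of the main Hspb1 transcript, 58.9% also occur in the annotated processed pseudogene Hsp25-ps1. A read wholly inside such a stretch cannot be assigned to 1 of them by its own sequence. The pseudogene was listed at 9.02 ± 2.40 FPKM in WT+AngII and 4.51 ± 2.45 in WT+NS (SD, n = 5 each) and was the gene most like Hspb1 over the libraries (r = 0.93), followed by Tgfb3 (r = 0.86) and Tent5b (r = 0.82). Adding its values to Hspb1 left the WT difference at 0.99.

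Hspb6, Hspb7 and Cryab, small heat shock proteins of striated and smooth muscle, were high in the same WT+NS library. WT+NS replicate 5 had 105.8 FPKM of Hspb6, 137.8 of Hspb7 and 139.3 of Cryab, against at most 32.8, 47.6 and 53.9 in the other 4 WT+NS libraries. That library also had the highest skeletal muscle sum of the study, 8845 FPKM. The libraries fell into 9 with almost no skeletal muscle markers (mean log2 level 0.363 to 1.60) and 11 with some (4.25 to 8.42). Hspb6 ranged from 15.6 to 27.9 FPKM in the first 9 and from 19.8 to 105.8 in the 11, among which it followed the list with r = 0.74 and rho = 0.75 (unadjusted permutation p for r = 0.00704). Cryab ranged from 17.6 to 50.7 FPKM in the 9 and from 30.9 to 139.3 in the 11, with r = 0.72 and rho = 0.70 among the 11 (unadjusted permutation p for r = 0.0123). Hspb7 ranged from 19.4 to 109.8 FPKM in the 9 and from 14.7 to 137.8 in the 11. Among the 11 its r with the list was 0.17 and its rho 0.29 (unadjusted permutation p for r = 0.633).

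Hspb6 and Cryab correlated with each other over the 20 libraries at r = 0.86, and at 0.78 without WT+NS replicate 5. The genes most like Hspb6 were Vgll2 (r = 0.94), Tmem52 (r = 0.93) and Ppp1r27 (r = 0.93). Those most like Cryab were Cav3, the muscle caveolin (r = 0.91), Slc25a4, the muscle ADP/ATP carrier (r = 0.90), and Klhl30 (r = 0.89). No comparison called Hspb6 or Cryab: under AngII, KO minus WT was -0.17 (95% interval -1.08 to 0.74) for Hspb6 and 0.23 (-0.65 to 1.11) for Cryab. With the skeletal muscle and white adipocyte lists as covariates the Hspb6 value was 0.14 and that of Cryab 0.52, neither of them called. Cryab lies on chromosome 9 and overlaps the oppositely oriented Hspb2 by 1030 bases; the sources used here do not state whether reads were counted by strand, so reads in the overlap cannot be assigned to 1 of them.

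Hspb7, the small heat shock protein of cardiac and skeletal muscle sarcomeres, had a higher mean under AngII than under saline in KO mice and was not called. It had 73.5, 109.8, 44.1, 74.7 and 61.5 FPKM in KO+AngII replicates 1 to 5, against 14.7, 51.6, 32.0, 53.1 and 48.8 in KO+NS replicates 1 to 5. These groups overlapped. The difference was 0.92 (95% interval -0.01 to 1.84, unadjusted p = 0.0516, adjusted p = 0.991, limma), where 0 genes were called and 595 had an unadjusted p under 0.05. The lowest library, KO+NS replicate 1, was also lowest in smooth muscle markers. The highest, KO+AngII replicate 2, was the one with cardiac muscle markers and with the fewest transcript models above 0. Over the 20 libraries Hspb7 had r = 0.70 with the smooth muscle list (rho = 0.61, adjusted permutation p = 0.00838 and 0.0543) and 0.56 without the 2 libraries farthest on it. Hspb7 also had r = 0.61 with the mesothelium marker list (rho = 0.73, adjusted permutation p = 0.0396 and 0.00731). Without the 2 libraries farthest on the mesothelium list, Hspb7 had r = 0.53 with it. Among the genes most like Hspb7 were Tmem38b, a cation channel of the sarcoplasmic reticulum (r = 0.91), and Fhl1 (r = 0.86).

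Hspb8, the partner of Bag3 in the clearance of misfolded proteins, had similar means in the 4 groups, at 78.4 ± 19.3 FPKM in KO+AngII, 75.7 ± 27.0 in KO+NS, 70.8 ± 11.5 in WT+AngII and 66.3 ± 14.1 in WT+NS (SD, n = 5 each). Across libraries it ran against the macrophage list (r = -0.82 and rho = -0.82, adjusted permutation p = 0.00108 and 0.00162; r = -0.81 without the 2 farthest libraries, -0.85 after subtracting group means). Hspb8 ran likewise against the T and NK cell list (r = -0.82 and rho = -0.84, adjusted permutation p = 0.00065 and 0.0013). Against the B and plasma cell list it had r = -0.77 and rho = -0.84 (adjusted permutation p = 0.00149 and 0.00162). Its lowest library, KO+NS replicate 3 at 42.7 FPKM, had a macrophage sum of 2057 FPKM, and its highest, KO+AngII replicate 1 at 108.7 FPKM, had 234.8, the lowest of all. With the macrophage list as a covariate the averaged genotype difference of Hspb8 moved to -0.06, against 0.13 without it, and neither was called. The genes most like Hspb8 were Bag2, an Hsp70 exchange factor (r = 0.90), Them4 (r = 0.88) and Chac2 (r = 0.88).

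Hspa1a and Hspa1b encode nearly the same inducible Hsp70 protein and lie 9951 bases apart on chromosome 17. Of their 50-base stretches 60.3% and 62.3% also occur in other annotated genes, mostly each other. Their values were therefore also summed. The sum was 14.3, 14.7, 51.2, 47.9 and 47.6 FPKM in KO+AngII replicates 1 to 5, and 7.70, 30.3, 25.5, 15.7 and 55.0 in KO+NS. In WT+AngII it was 101.3, 39.1, 108.9, 17.0 and 47.1 FPKM, and in WT+NS 46.7, 29.4, 30.8, 28.7 and 28.3. WT+NS was the tight group and the others spread widely, with WT+AngII holding both the highest libraries of the study and 1 below all of WT+NS.

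The summed means were 35.2 ± 18.9 FPKM in KO+AngII, 26.8 ± 18.0 in KO+NS, 62.7 ± 40.3 in WT+AngII and 32.7 ± 7.85 in WT+NS (SD, n = 5 each). The sum was lower in KO than in WT under AngII by 0.74 on the log2 scale (-0.74, 95% interval -1.84 to 0.36) and higher under AngII in WT by 0.66 (-0.44 to 1.76), with adjusted p = 0.487 and 1.00 (limma). Neither was called.

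The division of the sum between the 2 genes also varied. In 12 libraries Hspa1a held 40.6% to 48.0% of it, among them every WT+NS library (43.8% to 47.8%). In 6 it held 10.8% to 22.3%, namely KO+AngII replicates 1 and 2, KO+NS replicate 4 and WT+AngII replicates 1, 2 and 5. In 2 it held more, 78.3% in KO+NS replicate 1 and 99.7% in WT+AngII replicate 4, where Hspa1b had 0.0437 FPKM from 9 reads and Hspa1a 16.9 FPKM. Within the 12 libraries the division was steady although the sum ran from 25.5 to 108.9 FPKM. Reads in stretches common to both genes can be assigned to either, and how the authors' counting did so is not given in the sources used here; its part in the division was not tested. For Hspa1b alone KO minus WT under AngII was -0.18 (95% interval -2.02 to 1.67), and for Hspa1a -0.67 (-2.15 to 0.81). The genes most like Hspa1a were Epha2 (r = 0.79), Micall1 (r = 0.76) and Ubp1 (r = 0.71), and those most like Hspa1b were Rnf5 (r = 0.79), Bmper (r = 0.78) and Gm43857 (r = 0.76).

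**Figure D3:**
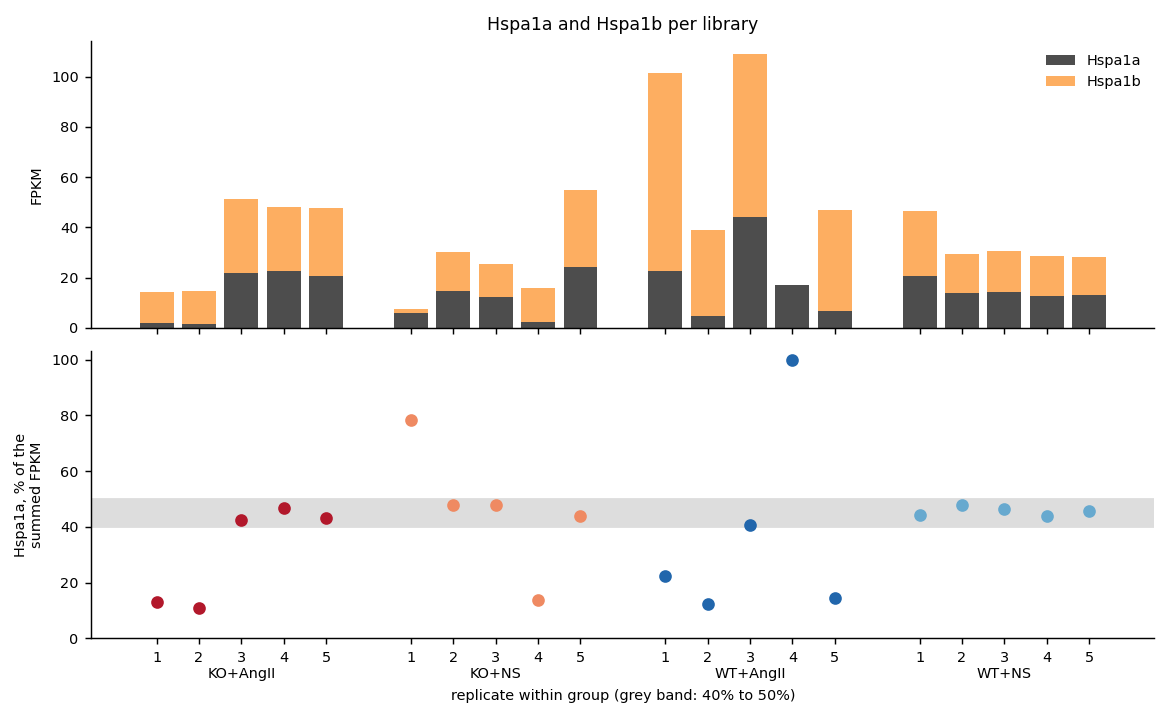
Hspa1a and Hspa1b in each library, as stacked FPKM (upper panel) and as the share of Hspa1a in their sum in percent (lower panel), ordered KO+AngII, KO+NS, WT+AngII, WT+NS. There are 12 libraries in the grey band of 40% to 50%, 6 at 10.8% to 22.3%, and 2 at 78.3% and 99.7%.

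Hspa8, the constitutive Hsp70 that also uncoats clathrin vesicles, had 327.1, 179.0, 697.0, 370.6 and 377.3 FPKM in KO+AngII replicates 1 to 5, and 361.9, 274.2, 352.7, 328.6 and 419.1 in KO+NS. In WT+AngII it had 433.5, 445.5, 390.0, 421.1 and 575.3 FPKM, and in WT+NS 339.6, 277.4, 437.5, 328.1 and 230.4. KO+AngII held both the lowest and the highest library of the study, and every WT+AngII library lay above 4 of the 5 WT+NS libraries, with WT+NS replicate 3 above 3 of them. AngII minus saline was 0.05 (95% interval -0.49 to 0.59) in KO and 0.51 (-0.04 to 1.05, unadjusted p = 0.0651, adjusted p = 1.00, limma) in WT.

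In the high library, KO+AngII replicate 3, transcripts annotated as retaining an intron held 51.4% of the Hspa8 FPKM, against 2.45% to 21.1% in the 19 others, and 1 of them, ENSMUST00000140984, held 278.3 FPKM against at most 59.1 elsewhere. The main coding transcript, ENSMUST00000015800, had 150.5 to 344.7 FPKM in KO+AngII, 238.6 to 355.9 in KO+NS, 316.5 to 485.2 in WT+AngII and 192.9 to 398.7 in WT+NS. On that transcript alone the AngII difference in KO was -0.08. Of its 50-base stretches 73.2% also occur in 11 other annotated genes, most of them in the pseudogene Gm15459. The lowest library, KO+AngII replicate 2, is the one with cardiac muscle markers and with the fewest transcript models above 0. The genes most like Hspa8 were Ctps (r = 0.86), the processed pseudogene Gm8355 (r = 0.85), which shares sequence with it, and Man1c1 (r = 0.83).

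Hsph1, the Hsp110 exchange factor of Hsp70, correlated with Hspa8 at r = 0.82 over the 20 libraries, and its means were 31.2 ± 6.91 FPKM in KO+AngII, 29.4 ± 6.64 in KO+NS, 34.4 ± 3.67 in WT+AngII and 28.0 ± 4.83 in WT+NS (SD, n = 5 each). The differences were within error in each comparison, for instance 0.30 (95% interval -0.06 to 0.65, adjusted p = 1.00, limma) for AngII in WT. Its 2 main coding transcripts, ENSMUST00000074846 with 17 exons and ENSMUST00000202361 with 18, stood in the opposite order in 3 WT libraries. The first was listed at 0 in WT+AngII replicates 1 and 3 and WT+NS replicate 1, where the second had 31.6, 25.8 and 20.1 FPKM; in the 17 others the first had 15.0 to 31.7 FPKM and the second 2.39 to 7.57. The gene totals of these 3 libraries lay inside the range of the rest, and how reads were assigned between transcripts was not tested. The genes most like Hsph1 were the processed pseudogene Gm15542 (r = 0.87), Hspa8 and Gm8355 (r = 0.80).

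**Figure D4:**
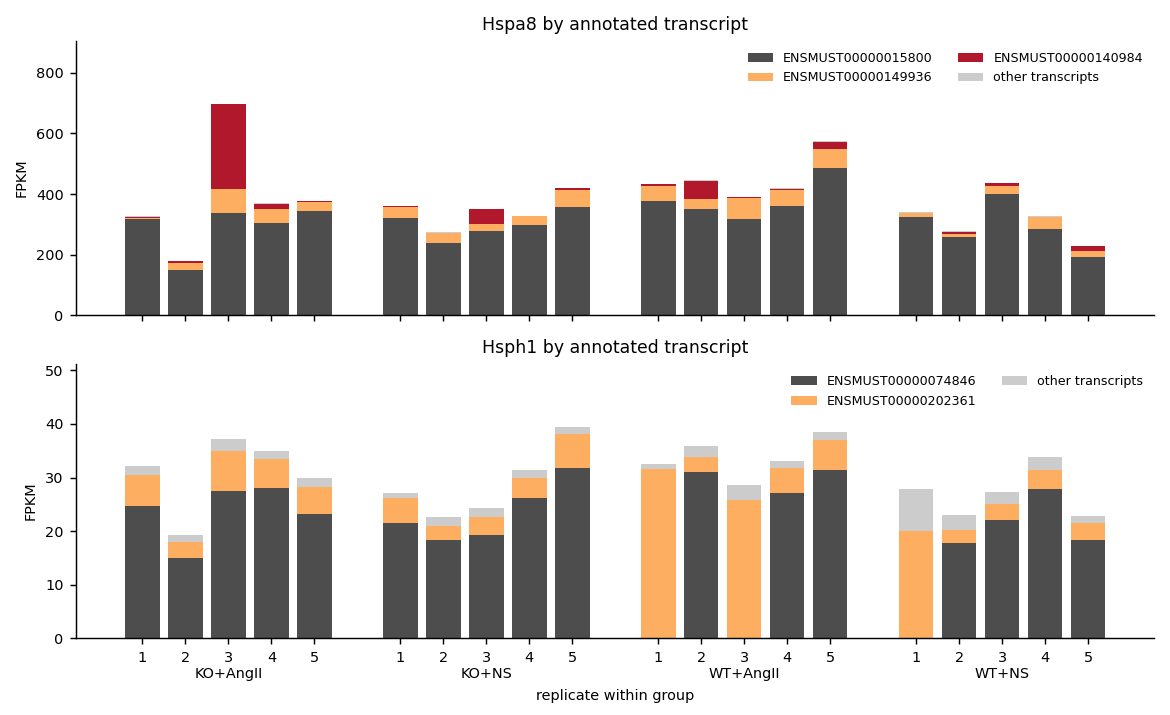
FPKM of Hspa8 and Hsph1 in each library, split by annotated transcript and ordered KO+AngII, KO+NS, WT+AngII, WT+NS. The intron-retaining Hspa8 transcript ENSMUST00000140984 reaches 278.3 FPKM in KO+AngII replicate 3, and ENSMUST00000074846 of Hsph1 is listed at 0 in 3 WT libraries.

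Over the set, 7 members were higher and 3 lower under AngII in KO mice and likewise in WT mice, with median differences of 0.09 and 0.24 against -0.06 and 0.02 for all tested genes. Of all tested genes 38.7% were higher under AngII in KO and 53.6% in WT, and 0 of the 10 members (0% of all genes) were called in either genotype. Between KO and WT, 3 were higher and 7 lower under AngII (median -0.17, all genes -0.10) and likewise under saline (median -0.22, all genes -0.04). Of all tested genes 38% were higher in KO under AngII and 42.9% under saline. The first comparison called 1 of the 10 and the second 0. With scaling in the manner of TMM 3 members were higher and 7 lower in both. With quantile normalization 5 members were higher and 5 lower under AngII and the median of all genes moved to 0.03, and Dnajb1 was lower (-0.55, adjusted p = 0.0203, limma). These comparisons share libraries, so their directions are not independent.

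**Figure D5:**
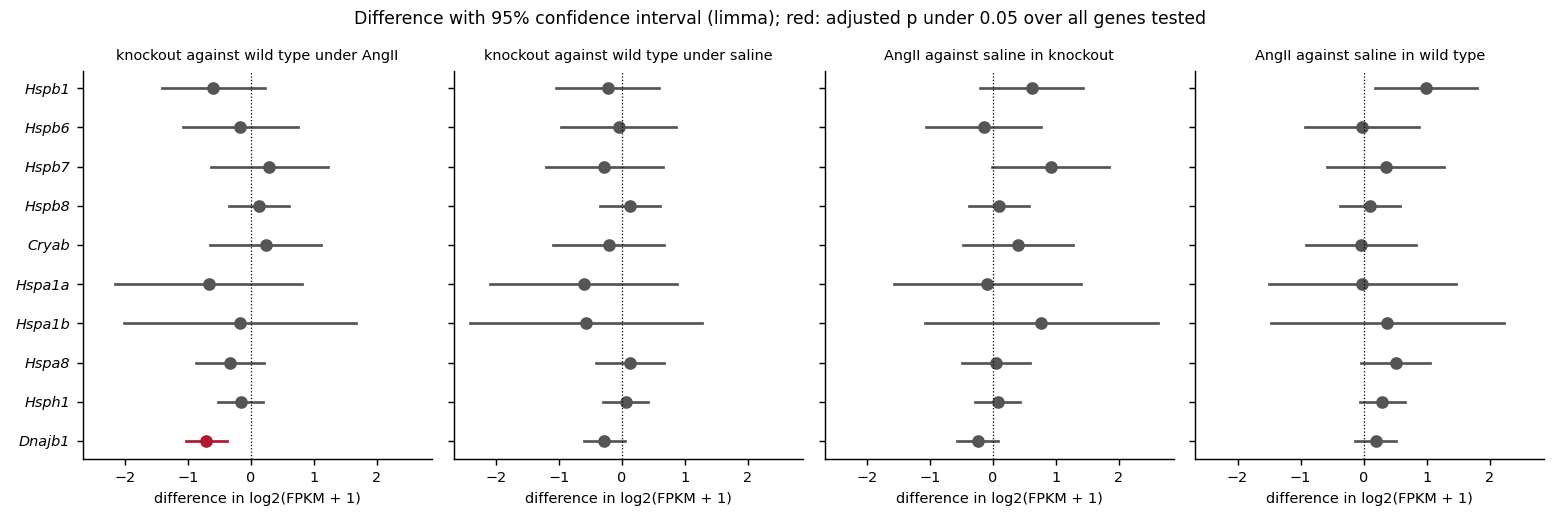
Difference in log2(FPKM + 1) with its 95% confidence interval (limma) for the 10 members in the 4 pairwise comparisons. Dnajb1 between KO and WT under AngII (-0.71, adjusted p = 0.0307) is the 1 value in red, past the threshold over all genes; Hspb1 under AngII in WT (0.99) has an interval above 0 and no call.

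The wider chaperone network was followed in 68 further genes, of which 63 passed the filter. AngII called 0 of the 63 in either genotype. In KO mice 27 were higher and 36 lower, and in WT mice 46 were higher and 17 lower (median 0.07, all genes 0.02). Of all tested genes 38.7% were higher in KO and 53.6% in WT. The split moved with scaling. In the manner of TMM it was 31 higher and 32 lower in KO, and 44 higher and 19 lower in WT. With quantile normalization it was 36 higher and 27 lower in each genotype. Of the 63, those with the smallest p included Dnajb4, an Hsp40 gene, at 25.8 ± 6.20 FPKM in KO+AngII against 17.5 ± 5.21 in KO+NS (SD, n = 5 each). They also included Fkbp5, an Hsp90 co-chaperone induced by glucocorticoids, at 44.0 ± 13.7 FPKM in WT+AngII against 18.4 ± 5.48 in WT+NS. Fkbp5 had a difference of 1.20 in WT (unadjusted p = 0.0200) and an interaction of -1.81 (unadjusted p = 0.0136), with adjusted p of 1.00 and 0.995 (limma). In KO mice Fkbp5 stood at 33.2 ± 25.9 FPKM in KO+AngII against 44.7 ± 24.7 in KO+NS (SD, n = 5 each). Under saline its KO minus WT difference was 1.10 (unadjusted p = 0.0310, adjusted p = 0.626, limma). The chaperonin gene Cct6a had 70.6 ± 8.20 FPKM in KO+AngII against 54.2 ± 14.9 in KO+NS (SD, n = 5 each), with an adjusted p of 0.991 (limma). Bag6, which guards tail-anchored proteins and lies on chromosome 17 with the Hspa1 pair, had 6.64, 5.53 and 7.31 FPKM in WT+AngII replicates 1, 2 and 5, against 18.7 to 35.6 in the 17 other libraries. Those 3 are the WT libraries in which Hspa1a held 12.4% to 22.3% of the Hspa1 sum. The KO libraries with a low Hspa1a share, KO+AngII replicates 1 and 2 and KO+NS replicate 4, had 18.7, 27.1 and 23.1 FPKM of Bag6. Bag6 differed by -1.28 (unadjusted p = 0.00168) and Bag4 by -0.25 (unadjusted p = 0.0455), both with adjusted p = 1.00 (limma), and the chaperonin gene Cct3 had an interaction of -0.41 (unadjusted p = 0.0273, adjusted p = 0.995, limma).

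Between genotypes, Hspe1 was the 1 gene of the 63 called under AngII (1.83% of all genes). It encodes Hsp10, the lid of the mitochondrial chaperonin. It had 81.0, 118.2, 72.2, 97.8 and 86.3 FPKM in KO+AngII replicates 1 to 5, against 141.4, 173.8, 128.4, 133.7 and 127.0 in WT+AngII. All KO+AngII libraries lay below all WT+AngII libraries, with a difference of -0.63 ± 0.14 (SE) and an adjusted p of 0.0331 (limma). Over both treatments Hspe1 was lower in KO (-0.58, adjusted p = 0.00625), as was Cdc37, the kinase-specific co-chaperone of Hsp90 (-0.36, adjusted p = 0.0322), and no other gene of the 63 was called. The Hspe1 call under AngII was lost with scaling in the manner of TMM (adjusted p = 0.145) and with quantile normalization (0.0863), and the average over treatments kept it in both (0.0384 and 0.0132).

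Under AngII 17 of the 63 were higher and 46 lower in KO, a split that became 34 higher and 29 lower with quantile normalization. Ahsa1, which stimulates the Hsp90 ATPase, had 54.0 ± 3.11 FPKM in KO+AngII against 67.6 ± 5.11 in WT+AngII (SD, n = 5 each; adjusted p = 0.0597, limma). Under saline Hspb11 had 6.69 ± 1.84 FPKM in KO+NS against 9.43 ± 0.982 in WT+NS (adjusted p = 0.583, limma). Hsf1, the gene of the heat shock transcription factor, had 10.6 ± 0.597 FPKM in KO+AngII against 15.7 ± 1.95 in WT+AngII (SD, n = 5 each), a difference of -0.52 that was not called (adjusted p = 0.389, limma). Its 2 groups did not overlap (9.92 to 11.3 against 12.3 to 17.1 FPKM). KO+AngII also lay wholly below WT+AngII for Ahsa1 (49.4 to 57.1 against 59.0 to 71.7), Cdc37 (21.9 to 26.4 against 27.9 to 39.5) and Cct3 (46.7 to 61.5 against 64.1 to 81.2). The same held for 3.84% of all tested genes in that comparison. Ahsa1, Cdc37 and Cct3 were named for small p-values in these same libraries, so that share is no yardstick for them. No count of such genes among the 63 is given. Bag3, the exchange factor that pairs with Hspb8, differed by -0.01 in that comparison, the Hsp90 gene Hsp90aa1 by -0.02 and the endoplasmic reticulum Hsp70 gene Hspa5 by 0.09, with intervals of -0.47 to 0.45, -0.46 to 0.42 and -0.41 to 0.59.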

How the data were processed

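The deposited values were FPKM per transcript model for 126719 models in each of 20 libraries, a unit read from the values. Per the submitters' processing notes the build was mm10 and limma was used; no source used here names the aligner or counter. Of 110082 Ensembl models, 109913 matched GENCODE M21 and were summed to 42890 genes; 16637 unannotated models, with 10.6% to 12.9% of the FPKM, were left out. Low values were whole multiples of 1 read (99.0% to 99.4% within 0.1 read), which gave 68748100 to 77391200 reads per library.

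Differences were tested on log2(FPKM + 1), which understates changes of low genes, with limma 3.58.1 in R 4.3.3 (trend and robust moderation) over the 15010 genes that reached 1 FPKM in 5 or more libraries. All 4 groups shared 1 fit, and p-values were Benjamini-Hochberg adjusted over all of these genes in each of 7 comparisons, with a threshold of 0.05. Correlations used 100000 permutations that ignored group, two-sided. Those within a part of the libraries, split at the widest gap in a list, were not adjusted. On simulated data with 200 of 15010 genes changed (AngII against saline in KO), the fit recovered 60% of log2 changes of 1 and 84% of those of 2. The changed genes all had a mean log2(FPKM + 1) above 2. The noise was drawn separately for each gene and library, so shifts shared between genes, as in these libraries, were not simulated.

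The members and lists were chosen with earlier results of these data known. Of other chaperone genes the text names the 3 with the smallest p in each comparison, plus Hsf1, Bag3, Hsp90aa1 and Hspa5, and for each member the 3 genes most correlated with it. Of the genes this rule names, 2 are not reported here. Promoter windows came from RefSeq (GRCm38.p6). Python 3.11.15, numpy 2.4.6, pandas 2.3.3 and matplotlib 3.10.9 were used.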

Additional observations from a re-analysis of the deposited data

Results flagged for a closer look

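In each of the 40 sets of 5 libraries (10 genes in 4 groups), the gap between the highest or lowest library and its nearest neighbour was divided by the range of the set, in log2(FPKM + 1), and held against Dixon's critical value of 0.71, which chance alone passes in about 1 of 20 sets. Cryab in KO+AngII replicate 1 stood above its group at 84.5 FPKM, with a gap of 0.787 of the log2 range. Hspa1a and Hspa1b were both high in WT+NS replicate 1, at 20.6 FPKM (0.749 of the log2 range) and 26.0 FPKM (0.856 of the log2 range). Hspa1b in WT+AngII replicate 4 stood below its group at 0.0437 FPKM (0.812 of the log2 range).

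The outcome depended on the scale, with 4 libraries past the critical value in log2(FPKM + 1) and 8 in FPKM itself. The low Hspa1b library was not among the 8, which held the other 3 above (Cryab 0.842, Hspa1a 0.791 and Hspa1b 0.885 of the FPKM range). The others were WT+NS replicate 5 for Hspb6 (0.832), Hspb7 (0.762) and Cryab (0.751), KO+AngII replicate 1 for Hspb6 (0.779) and KO+NS replicate 5 for Hspb1 (0.728), each the highest of its group.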

How the results depend on the processing

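Of 2300 values of single members under the alternatives, 2081 kept their direction and side of the threshold and 0 called values reversed; 208 uncalled values changed sign. The 10 that lost a call were all Dnajb1 between KO and WT under AngII: with only the groups compared (adjusted p = 0.0634), with the replicate block (0.0585), and without 8 of 10 single libraries (limma). Over all its alternatives that adjusted p ran from 0.0033 to 0.104. With library weights Dnajb1 was also called under saline (-0.51, adjusted p = 0.0276, limma).

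Counts of genes called moved as follows. Between KO and WT under AngII (275), the count was 1 with only the groups compared, 179 with limma-voom on whole reads, 1913 with library weights, 498, 706 and 416 with the lymphocyte, macrophage and smooth muscle covariates, 790 without KO+NS replicates 1 and 3, and 9 to 484 without single libraries. Under saline (2) it was 1 with a pseudocount of 5, a filter at 5 FPKM, quantile normalization, only the groups compared, the 2 tissue covariates, limma-voom, or the smooth muscle or immediate early covariate. It was 20 with no filter, 1195 with library weights, 128 and 38 with the lymphocyte and macrophage covariates, 49 without KO+NS replicates 1 and 3, and 1 to 4 without single libraries. Over both treatments (623) it was 1172 with no filter, 4039 with library weights, 1621 and 1510 with the lymphocyte and macrophage covariates, 3042 without KO+NS replicates 1 and 3, and 281 to 1007 without single libraries. For AngII (0 in each case) it was 2 in KO, 2 in WT and 2 over both with library weights, 11 in WT, 1 over both and 1 for the interaction with no filter, and 0 to 4 in KO, 0 to 1 in WT and 0 to 5 over both without single libraries. The cause was not tested.

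Scaling moved the split of genes called between KO and WT under AngII: 78.5% were lower in KO, against 47.1% with scaling in the manner of TMM and 33.2% with quantile normalization. Over both treatments these shares were 77.0%, 47.9% and 36.4%. The covariates other than the 2 tissue covariates, and leaving out KO+NS replicates 1 and 3 together, were chosen after seeing the data. Same-numbered libraries did not deviate together (10 of 30 pairs above a correlation of 0.1, median -0.0265), so the numbers are not taken as pairs. With the replicate block, 70 genes were called under AngII and 1 under saline.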
